A study of Mus musculus with 4 samples.

Results

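Genes of the proteasome were examined by DNase-seq in mouse naive T cells, labelled as resting, CD8-positive and of the alpha-beta lineage. They were the protein-coding genes of the GENCODE mouse annotation whose symbol is Psm followed by a letter from a to g and a number, without the immunoproteasome genes Psmb8, Psmb9 and Psmb10. The rule found 47 of 21911 protein-coding genes. By known role, 31 of them encode structural subunits of the 26S proteasome, namely 14 of the core particle, 9 of the base and 8 of the lid. A further 4 encode alternative activators (Psme1 to Psme4), 7 assembly chaperones (Psmg1 to Psmg4, Psmd5, Psmd9 and Psmd10) and 1 the inhibitor PI31 (Psmf1). Psma8, a subunit known from testis, and Psmb11, a catalytic subunit known from the thymic cortex, are tissue-restricted. Psme2b is an annotated copy of Psme2 with 1 exon, and Psmc3ip matches by its symbol although its protein is a meiotic recombination factor and no proteasome subunit.

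The cells came from virgin female B6CASTF1/J mice, an F1 hybrid strain, aged 2 months, with no treatment named, and formed 1 group of 4 libraries labelled as biological replicates 1 to 4. The libraries have separate biosample records and the same donor record, and the labels do not say whether each came from its own animal. Spread between them may therefore be technical. DNase I cuts DNA that is not packed away by nucleosomes, so a peak of cuts marks an accessible site, and a footprint is a short stretch inside it that was cut less than its surroundings.

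The 26S proteasome degrades proteins tagged with ubiquitin. Its barrel-shaped core particle has outer rings of alpha subunits, which gate the entry, and inner rings of beta subunits, 3 of which (encoded by Psmb5, Psmb6 and Psmb7) cut peptide bonds. The regulatory particle sits on the barrel: ATPases of its base unfold the substrate, and its lid holds the deubiquitinase Psmd14. In CD8-positive T cells, as in other cells, the complex supplies peptides for MHC class I molecules, and lymphocytes and cells exposed to interferon are known to build in catalytic subunits of the immunoproteasome.

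To show what the accessible promoters look like, 300-base RefSeq promoters (GRCm38.p6, the patch release of the build on which the files stand, mm10), from 250 bases before to 50 bases after the annotated start, are given for 7 genes. RefSeq promoters were matched by symbol for 39 of the 47 genes. All are read 5′ to 3′ on the strand of the gene, and capitals mark bases inside footprints of at least 3 libraries. The letters are those of the reference genome, not of the CAST parent. Psma2 (chr13:14612992-14613291, plus strand) and Psmg1 (chr16:95990911-95991210, minus strand) had the highest peaks among genes with a RefSeq promoter, Psmb3 (chr11:97703184-97703483, plus strand) had among the most footprints, and Psmb4 (chr3:94886909-94887208, minus strand) was the lowest structural subunit. Psmb5 (chr14:54617946-54618245, minus strand) and Psmb11 (chr14:54625060-54625359, plus strand) are neighbours that differed in accessibility, and Psme1 (chr14:55578244-55578543, plus strand) was called in all libraries except replicate 4. Psma2, Psmg1, Psmb5 and Psme1 were picked for printing after their values were seen.
Psma2: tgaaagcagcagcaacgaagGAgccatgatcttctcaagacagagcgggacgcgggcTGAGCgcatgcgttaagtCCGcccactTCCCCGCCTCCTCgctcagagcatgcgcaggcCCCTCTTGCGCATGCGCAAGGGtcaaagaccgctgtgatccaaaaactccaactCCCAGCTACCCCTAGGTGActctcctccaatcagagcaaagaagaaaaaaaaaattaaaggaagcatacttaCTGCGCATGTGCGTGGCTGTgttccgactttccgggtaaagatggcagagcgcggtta
Psmg1: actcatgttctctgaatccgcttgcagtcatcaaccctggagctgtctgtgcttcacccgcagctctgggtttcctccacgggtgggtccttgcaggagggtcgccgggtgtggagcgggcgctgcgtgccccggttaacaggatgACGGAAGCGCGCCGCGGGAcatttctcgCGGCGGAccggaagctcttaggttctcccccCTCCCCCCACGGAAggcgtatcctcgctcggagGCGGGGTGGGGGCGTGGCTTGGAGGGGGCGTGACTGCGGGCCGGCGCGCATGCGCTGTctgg
Psmb3: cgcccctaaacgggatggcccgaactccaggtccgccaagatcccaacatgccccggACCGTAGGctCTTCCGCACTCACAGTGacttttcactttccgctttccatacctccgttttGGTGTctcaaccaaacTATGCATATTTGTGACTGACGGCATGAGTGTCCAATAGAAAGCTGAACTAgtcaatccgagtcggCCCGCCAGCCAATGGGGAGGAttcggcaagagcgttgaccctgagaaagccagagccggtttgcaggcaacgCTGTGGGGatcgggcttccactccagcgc
Psmb4: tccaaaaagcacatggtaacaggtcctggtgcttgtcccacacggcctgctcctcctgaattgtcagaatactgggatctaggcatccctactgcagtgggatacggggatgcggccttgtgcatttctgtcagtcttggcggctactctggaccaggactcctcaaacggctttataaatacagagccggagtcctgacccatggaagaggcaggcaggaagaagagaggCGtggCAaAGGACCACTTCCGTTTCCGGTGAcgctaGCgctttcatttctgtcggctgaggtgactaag
Psmb5: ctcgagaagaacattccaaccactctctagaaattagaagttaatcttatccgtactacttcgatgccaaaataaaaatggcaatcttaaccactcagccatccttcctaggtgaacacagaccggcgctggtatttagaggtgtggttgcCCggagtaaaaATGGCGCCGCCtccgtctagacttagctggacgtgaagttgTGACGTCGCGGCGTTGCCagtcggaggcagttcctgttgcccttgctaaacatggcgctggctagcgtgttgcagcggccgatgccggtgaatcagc
Psmb11: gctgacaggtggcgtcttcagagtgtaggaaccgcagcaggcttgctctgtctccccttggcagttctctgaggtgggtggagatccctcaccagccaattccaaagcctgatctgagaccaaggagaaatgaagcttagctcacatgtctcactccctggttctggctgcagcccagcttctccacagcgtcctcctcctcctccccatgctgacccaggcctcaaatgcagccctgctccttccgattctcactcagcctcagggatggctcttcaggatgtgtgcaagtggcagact
Psme1: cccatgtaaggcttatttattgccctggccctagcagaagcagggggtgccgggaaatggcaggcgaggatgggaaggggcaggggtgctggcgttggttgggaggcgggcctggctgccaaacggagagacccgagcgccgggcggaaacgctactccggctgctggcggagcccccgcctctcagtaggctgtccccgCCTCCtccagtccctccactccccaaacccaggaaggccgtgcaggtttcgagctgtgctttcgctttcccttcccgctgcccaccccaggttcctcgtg

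Footprints of at least 3 libraries covered 109 of the 300 bases in Psmb3, 98 in Psmg1 and 84 in Psma2, against 31 in Psmb5, 29 in Psmb4, 5 in Psme1 and none in Psmb11. In Psma2 a capital run spells CCCTCTTGCGCATGCGCAAGGG, which holds the NRF1 motif (nuclear respiratory factor 1, the palindrome that GCGCA forms with its complement) at positions -127 to -118, counted from the annotated start as position 0. Psmg1 holds the same motif at 33 to 42, also wholly inside a footprint. In Psmb3 both CCAAT boxes, the motif of NF-Y, lay wholly inside footprints, at -85 to -81 and at -43 to -39. In Psmb5 the run TGACGTCGCGGCGTTGCC begins with a match to the antioxidant response element (TGACNNNGC), the motif of NFE2L1 and NFE2L2, at -47 to -39.

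The libraries differed in depth and in marker genes. Only the lowest distinct peak heights of each library were checked for a common step. They were whole multiples of 1 step to within 0.05 of it, and its reciprocal reads as 109, 62.9, 91.5 and 24.3 M tags in replicates 1 to 4. The longer peak lists held 69413, 70552, 51121 and 20647 peaks and the footprint lists 170815, 149082, 137861 and 26149 footprints, so replicate 4 was the shallowest on each count. Each gene's promoter spanned 1 kb on either side of all its GENCODE starts, and it was called where a peak of the longer list overlapped it by at least 1 bp. Relative height is the height of the highest such peak over the library's median at the 17545 sites called in all 4 libraries, and is 0 where no peak was called. The highest or lowest gene of a class is the one with that mean over the 4 libraries. Cd8a, which encodes the CD8 alpha chain, stood at 0.498 in replicate 1 and 0.366 in replicate 2. No Cd8a promoter peak was called in replicates 3 and 4, so this mark of their labelled cell type was not seen there. In replicate 4 a peak of this low height may be one not detected. The T cell markers Cd3e, Cd3g and Cd247 were likewise called in replicates 1 to 3 and not in replicate 4. Cd8b1 (CD8 beta chain) was called in all 4, at 1.12, 1.43, 1.03 and 0.596 in replicates 1 to 4, as was Runx3, whose product sets the CD8 fate, at 1.95, 2.02, 1.49 and 1.40. Of 2 markers of helper T cells, Cd4 was called in none, and Zbtb7b, which encodes the helper lineage factor ThPOK, in all 4, at 0.251, 0.358, 0.746 and 1.12. Zbtb7b was thus higher in replicates 3 and 4, which had no Cd8a peak, than in replicates 1 and 2. Of 5 T cell markers, 5, 5, 5 and 2 were called in replicates 1 to 4, with summed relative heights of 5.16, 4.40, 4.08 and 2.09. Of 4 B cell markers, 3, 2, 4 and 2 were called, with sums of 0.807, 0.693, 1.99 and 2.35. Pax5 was called in all 4 libraries, at 0.584, 0.648, 1.02 and 1.67, and was the highest of the 4 markers in each. Cd79a was at 0 in replicates 1 and 2, Cd79b in replicates 2 and 4, and Ms4a1 in replicate 4. Of 4 myeloid markers, 3, 3, 3 and 0 were called (Csf1r in none), and of 3 NK markers 1, 1, 1 and 0 (Ncr1 and Klrb1c in none). The part of these differences in the results was not tested, and values are given with replicates 1 and 2 only where they moved.

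Proteasome promoters were accessible almost throughout. A peak in at least 3 libraries was called at 44 of the 47 genes, or 93.6%, against 55.2% of all protein-coding genes. A peak in all 4 libraries was called at 43, or 91.5%, against 45.8% of protein-coding genes. The number of proteasome genes called was 44, 44, 44 and 43 in replicates 1 to 4, while the share of all protein-coding genes called was 58.3%, 58.4%, 56.7% and 46.2%. All 31 structural subunits, all 7 chaperones, Psmf1 and Psmc3ip were called in all 4 libraries. Of the activators, Psme2, Psme3 and Psme4 were called in all 4 and Psme1 in 3. The other 3 genes, Psma8, Psmb11 and Psme2b, were called in none, so 44 genes were called in any library, against 60.8% of protein-coding genes. No test was made over the list, since its members are not replicates. With replicates 1 and 2 only, 44 genes were called in both.

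The height of the accessible promoters lay close to that of other accessible promoters. In these bulk samples a site open in fewer cells and a site less open in each cell cannot be told apart. The 43 genes called in all 4 libraries had a median relative height of 1.59, against 1.57 for the 10044 protein-coding genes called in all 4. Their median in replicates 1 to 4 was 1.54, 1.43, 1.71 and 1.49, against 1.51, 1.50, 1.63 and 1.58. The proteasome genes were the lower group in replicates 2 and 4 and the higher group in replicates 1 and 3. What differed in the description was the low end: 40 of the 43, or 93%, had a mean relative height of at least 1, against 73.8% of the protein-coding genes called in all 4. Other ubiquitous machines were set beside them. Over the genes of each list, uncalled ones included, the median relative height was 1.34 for the 47 proteasome genes and 1.73 for the structural subunits, against 2.06 for 76 ribosomal protein genes and 1.72 for 80 oxidative phosphorylation genes. The ribosomal list was called in at least 3 libraries at 73 genes and the oxidative phosphorylation list at 76, so a near-complete set of accessible promoters was not particular to the proteasome.

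**Figure D1:**
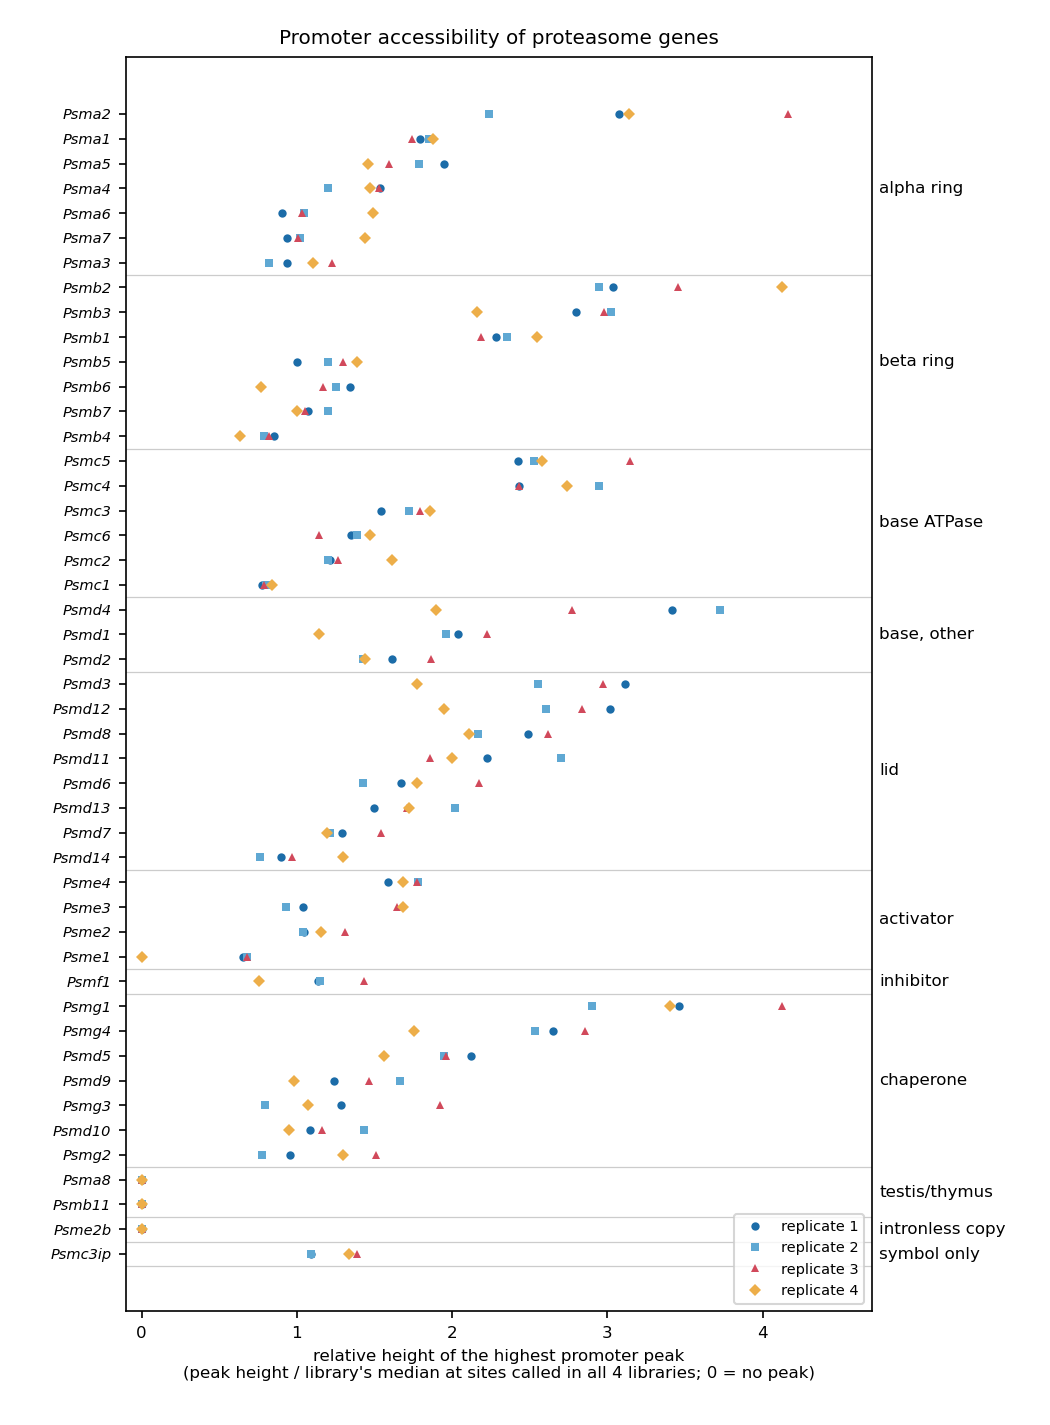
Relative height of the highest promoter peak (x axis, peak height over the library's median at sites called in all 4 libraries, no unit) for each of the 47 proteasome genes (rows, grouped by class and ordered by mean), with 1 point per library. Psma8, Psmb11 and Psme2b lie at 0 in all 4 libraries and Psme1 lies at 0 in replicate 4, while the highest means are those of Psmg1 (3.47), Psmb2 (3.39) and Psma2 (3.15).

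The core particle showed the widest range among the structural classes. Its 14 genes had a median relative height of 1.33 (SD of the library medians 0.107, n = 4 libraries), 1.44 for the alpha ring and 1.22 for the beta ring. In the alpha ring Psma2 was the highest, at 3.07, 2.24, 4.16 and 3.14 in replicates 1 to 4. Its peak was centred 149 bp upstream of its start (median over libraries), beyond the nearest start of Mrpl32, a mitochondrial ribosomal protein gene that begins 75 bp away on the other strand, so the height cannot be given to either gene alone. Psma3 was the lowest, at 0.936, 0.819, 1.23 and 1.11, and the ranges of Psma2 and Psma3 did not overlap. The other alpha genes had means from 1.10 (Psma7) to 1.82 (Psma1).

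In the beta ring Psmb2 was the highest, at 3.04, 2.95, 3.45 and 4.12, with a mean percentile of 94.5 among called protein-coding genes. Psmb4 was the lowest of all structural subunits, at 0.853, 0.787, 0.818 and 0.632, below every library of Psmb2. Both encode subunits without proteolytic activity of their own. The genes of the catalytic subunits lay in the lower part of the ring: Psmb5 (chymotrypsin-like activity) had a mean of 1.22 ± 0.165, Psmb6 (caspase-like) 1.13 ± 0.252 and Psmb7 (trypsin-like) 1.08 ± 0.0837 (SD, n = 4 libraries). The ranges of these 3 overlapped. Psmb3 (2.74 ± 0.399) and Psmb1 (2.34 ± 0.152) lay above them in every library.

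The base had a median of 1.73 (SD of the library medians 0.119, n = 4 libraries) over 9 genes. Psmd4, the ubiquitin receptor also known as Rpn10, was the highest, at 3.42, 3.72, 2.77 and 1.89. Replicates 1 and 2 held the high values and replicate 4 the low one. Among the ATPases Psmc5 was the highest, at 2.42, 2.53, 3.14 and 2.58, and Psmc1 the lowest, at 0.778, 0.804, 0.787 and 0.842. Psmc1 varied least of all called genes, with an SD of 0.0284. Psmd2, a scaffold of the base, had 1.62, 1.43, 1.87 and 1.44, and the scaffold Psmd1 2.04, 1.96, 2.22 and 1.14.

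The lid had the highest median of the classes, 1.98 (SD of the library medians 0.137, n = 4 libraries) over 8 genes. Its library medians of 1.95, 2.09, 2.02 and 1.77 lay above those of the base (1.62, 1.72, 1.87 and 1.61), and these above those of the core (1.44, 1.23, 1.41 and 1.46), in each of the 4 libraries. The ranges of single genes overlapped widely, from 0.981 to 2.60 in the lid, 0.803 to 2.95 in the base and 0.772 to 3.39 in the core, and class medians over so few genes were not tested. Psmd3 was the highest lid gene, at 3.11, 2.55, 2.97 and 1.77, and Psmd12 had almost the same mean (2.60 for both). Psmd14, the deubiquitinase that removes ubiquitin chains at the entry, was the lowest, at 0.900, 0.760, 0.966 and 1.30.

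**Figure D2:**
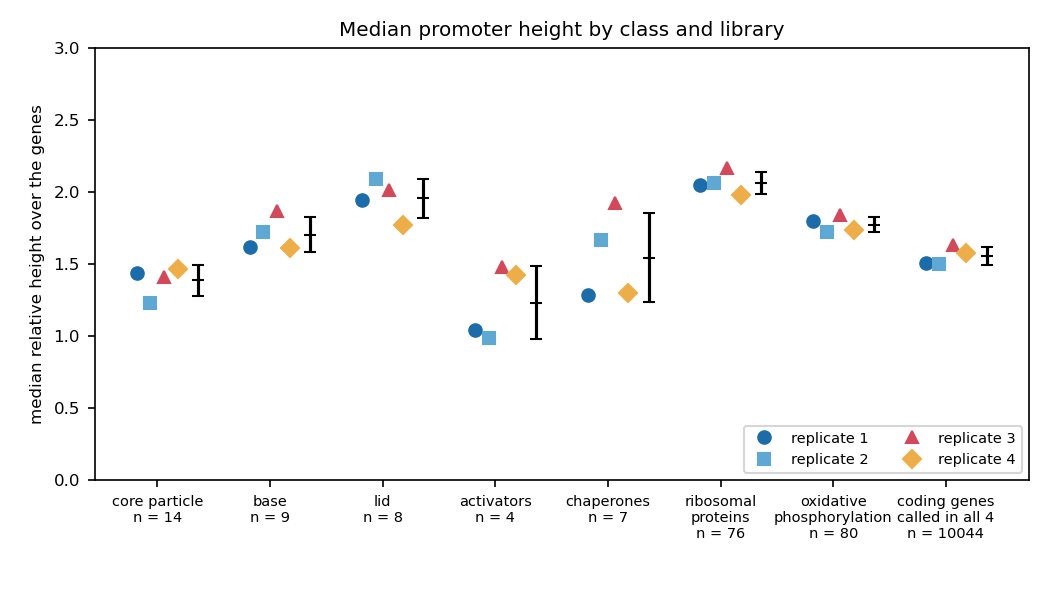
Median relative height (y axis, no unit) over the genes of each class in each of the 4 libraries, with the mean and SD of the 4 library medians in black to the right of the points. The lid lies above the base and the base above the core in all 4 libraries, and the ribosomal protein genes lie above all proteasome classes except the lid in replicate 2.

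The activators had a median of 1.23 (SD of the library medians 0.253, n = 4 libraries). Psme1 and Psme2 encode the alternating subunits of PA28, a cap induced by interferon gamma that opens the core without ATP, Psme3 the nuclear cap PA28 gamma, and Psme4 the nuclear cap PA200. Psme1 had relative heights of 0.653, 0.682, 0.680 and 0, the lowest mean (0.504) among the called genes. Psme2 had 1.04, 1.04, 1.31 and 1.16, which exceeded Psme1 in 4 of 4 libraries, by 0.635 ± 0.369 (SD, n = 4). In replicate 4 the 0 of Psme1 stands for a missing call, and without that library the mean difference was 0.461. An exact sign-flip permutation test over the libraries gave p = 0.125 (two-sided), the smallest p that 4 libraries allow, and 0.25 after Benjamini-Hochberg adjustment over the 2 pairs compared.

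The difference depended on which peak was taken for Psme2. Psme2 was the exception among the 44 called genes: its highest peak was not centred within 200 bp of its own starts. In replicates 1, 2 and 4 it lay nearer to Rnf31, a ubiquitin ligase gene that starts 595 bp away on the other strand, and in replicate 3 it was 780 bp wide and spanned both starts. The highest peak centred within 200 bp of a start of Psme2 had 0.638, 0.629, 0.835 and 0.842. Against Psme1 the difference was then -0.0156, -0.0533, 0.155 and 0.842, with a mean of 0.232 ± 0.417 (SD, n = 4), and Psme2 was higher in 2 of 4 libraries (exact sign-flip permutation test, p = 0.5). This choice was made after the data were seen. The replicate 4 difference of 0.842 set Psme2 against a Psme1 without a called peak, counted as 0, and the mean rests largely on it. In replicates 1 to 3, where both genes had a peak, Psme2 was higher in replicate 3 only.

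Psme3 had 1.04, 0.933, 1.64 and 1.68, with both high values in replicates 3 and 4. Psme4 had 1.58, 1.78, 1.77 and 1.68. Psme3 minus Psme4 was -0.381 ± 0.388 (SD, n = 4), below 0 in 3 of 4 libraries and 0 in replicate 4 (exact sign-flip permutation test, p = 0.25, adjusted p = 0.25). With replicates 1 and 2 only, chosen after the data were seen, the differences were 0.375 for Psme2 minus Psme1 and -0.696 for Psme3 minus Psme4. Without replicate 2 Psme3 minus Psme4 was -0.226.

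**Figure D3:**
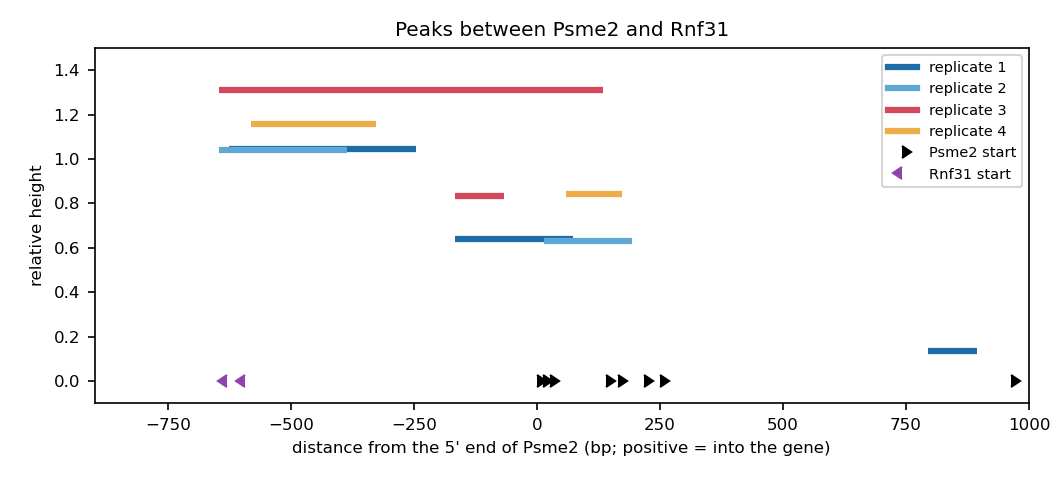
Peaks around the start of Psme2 in each library: each bar spans a peak along the distance from the 5′ end of Psme2 (x axis, bp, positive into the gene) at its relative height (y axis, no unit), and triangles mark annotated starts of Psme2 and Rnf31. Between 1.04 and 1.31 the higher peaks reach towards Rnf31, and that of replicate 3, at 1.31, spans both starts. The highest peaks centred within 200 bp of a start of Psme2 lie between 0.629 and 0.842.

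The chaperones had a median of 1.34 (SD of the library medians 0.309, n = 4 libraries). Psmg1, which with Psmg2 helps to assemble the alpha ring, had the highest mean of all 47 genes, 3.47, with 3.46, 2.90, 4.12 and 3.40. Its partner Psmg2 had the lowest mean of the chaperones, 1.13, with 0.953, 0.775, 1.51 and 1.30. It was the lowest of the 7 in replicates 1 and 2 only, and in replicates 3 and 4 Psmd9 and Psmd10 were lower. The second assembly heterodimer showed a gap as well, with means of 2.45 ± 0.480 for Psmg4 and 1.27 ± 0.478 for Psmg3 (SD, n = 4 libraries), and Psmg4 was higher in each library. Another coding gene, Gm26938, has a start within 1 kb of the Psmg3 peak, so that height cannot be given to Psmg3 alone. Chaperones of the base had means of 1.90 (Psmd5), 1.34 (Psmd9) and 1.16 (Psmd10). The inhibitor gene Psmf1 had 1.13, 1.15, 1.43 and 0.754. Psmc3ip had 1.09, 1.09, 1.38 and 1.33.

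The tissue-restricted genes were closed in all 4 libraries. Psma8 and Psmb11 had no promoter peak, no footprint and 0 bases in cut-rate intervals in any library, and the same held for Psme2b. In each library between 46.2% and 58.4% of protein-coding genes were called, so a missing promoter peak was common in itself. The nearest start of Psmb11 lies 3411 bp from that of Psmb5, in the other orientation, and the nearest peak to Psmb11 was centred 3.40, 3.38, 3.33 and 3.43 kb from its start, at Psmb5. Psmb5 itself had relative heights of 1.00, 1.20, 1.30 and 1.39. The nearest peak to Psma8 was 9.08, 5.01, 20.9 and 23.0 kb away, and that to Psme2b 12.6, 12.5, 44.3 and 74.8 kb away, with the distances growing in the shorter peak lists. How reads shared between Psme2b and Psme2 were treated is not given in the sources used here, so the value of Psme2b is uncertain. Of the printed promoters, that of Psmb11 had 4 CpG dinucleotides, against 20 in Psmb5. The printed Psmb11 promoter belongs to a start further inside the gene, not to the 5′ end (position 54621433) from which the distances to Psmb5 were taken.

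Accessible proteasome promoters had their peak at the start itself. The peak was centred within 200 bp of an annotated start at 43 of 44 called genes (97.7%), against 79.8% of the 13321 protein-coding genes called in any library. The sets are unlike, since 43 of the 44 were called in all 4 libraries, against 10044 of the 13321. The share over genes called in all 4 was not taken. The median centre lay 17.5 bp upstream of the nearest start, against 31 bp, and the median peak width was 214 bp, against 225 bp. At Psma6, Psmd5, Psmd9 and Psmf1 the peak lay at an inner annotated start: with the 5′ end of the gene model as the only start, these 4 lost their call, and 40 of 47 genes were called in at least 3 libraries. A coding gene starting within 1 kb upstream on the other strand was found at 11 of the 47 genes (23.4%), against 11% of all protein-coding genes, uncalled ones included. The partners were Mrpl32 for Psma2, AY074887 for Psma4, Ss18l1 for Psma7, Tbp for Psmb1, Dnajc2 for Psmc2, Ftsj3 for Psmc5, Htr2b for Psmd1, Atg4a for Psmd10, Sirt3 for Psmd13, Rnf31 for Psme2 and Cep76 for Psmg2. At these genes except Psmd1, a peak near both starts cannot be given to either gene alone. The highest peak of Psmd1 had no start of Htr2b within 1 kb.

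Footprints and cut-rate intervals gave the same division into open and closed genes. They come from the same alignments as the peaks and are not independent of them. At least 1 promoter footprint was found in at least 3 libraries at 44 of 47 genes, against 52.8% of protein-coding genes, and in all 4 libraries at 39, against 37.6%. In replicates 1 to 4 it was found at 44, 44, 44 and 39 genes, against 56.2%, 55.5%, 54.6% and 37.7% of protein-coding genes. The 5 called genes without a footprint in replicate 4 were Psma3, Psma7, Psmd9, Psme1 and Psmf1. Over the 43 genes with a peak in all 4 libraries, the median was 5.50 footprints per promoter (mean over libraries), against 6 for protein-coding genes called in all 4. Per library the median over these 43 was 7, 6, 7 and 2 footprints, the lowest in the shallowest library. Psmb3 had 11, 9, 11 and 6 footprints, Psmg2 16, 9, 11 and 1, and Psmb1 9, 12, 12 and 3. Psmb6, Psmd9 and Psme1 had the fewest of the called genes, with means of 2.75.

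Bases in cut-rate intervals, listed with a false discovery rate under 0.05, had a median of 953 per promoter over the 43 genes, against 1036 for protein-coding genes called in all 4. Psmb1 had the most, at 1860, 2270, 2091 and 1149, and Psmb6 the fewest of the genes called in all 4, at 641, 590, 559 and 228. Genes with several starts have larger windows, and Psmb1, which shares its promoter with Tbp, was scanned over 5455 bp. Over the 43 genes, which share libraries and depth, Spearman's rho was 0.338 between height and footprints and 0.188 between height and bases in cut-rate intervals. Psmb2, with the highest peak of the structural subunits, had 4, 5, 5 and 4 footprints.

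**Figure D4:**
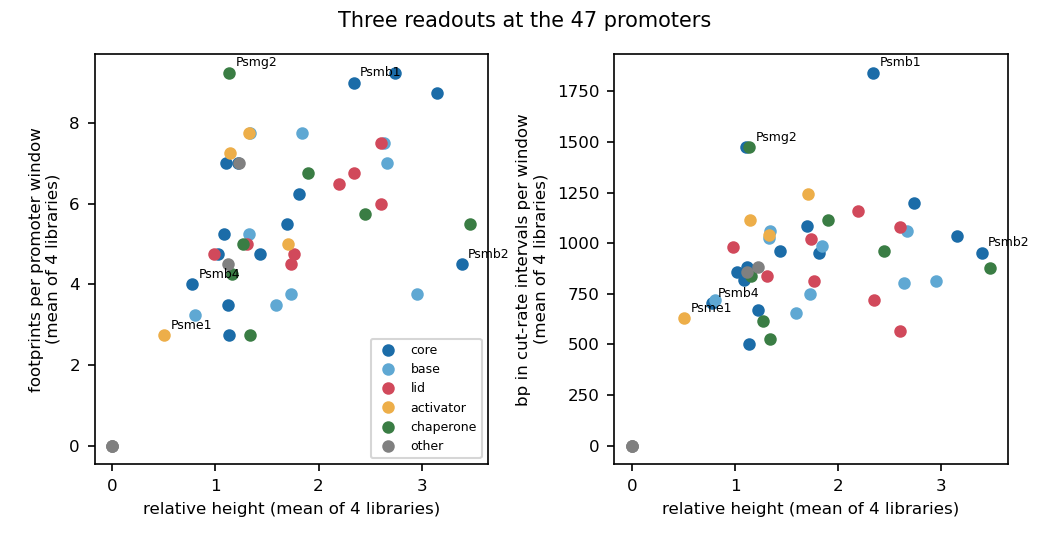
Footprints per promoter window (left, y axis, number) and bases in cut-rate intervals (right, y axis, bp) against relative height (x axis, no unit) for the 47 proteasome genes, as means of 4 libraries, coloured by class. Psmb2 combines a height of 3.39 with 4.50 footprints, Psmg2 a height of 1.13 with 9.25, and the 3 uncalled genes lie at 0 on every axis.

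The order of the genes by height was similar between libraries. Over the 43 genes called in all 4, Spearman's rho lay between 0.772 and 0.933 over the 6 library pairs, highest between replicates 1 and 2 and at most 0.783 in pairs with replicate 4. Relative to the mean of replicates 1 and 2, heights in replicate 3 had a median ratio of 1.06, with a range from 0.755 (Psmd11) to 1.85 (Psmg3). In replicate 4 the median ratio was 1.03, with a range from 0.531 (Psmd4) to 1.71 (Psme3). The same median ratios over all protein-coding genes called in all 4 were 1.07 and 1.07. With replicates 1 and 2 only, the median of the structural subunits was 1.63, against 1.73 with all 4 libraries.

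Motifs were searched on both strands of the 42 RefSeq promoters that belong to 39 of the genes; Psma6, Psmc2 and Psme2 have a pair each, and the pair of Psme2 overlaps. The ETS family motif CCGGAAG was found in 16 of 42 promoters (38.1%), against 21.9% of the 9419 protein-coding promoters called in at least 3 libraries and 11.9% of all 20150. It touched a footprint of at least 3 libraries in 10 of them (23.8%), against 9.79% and 4.61%, and lay wholly inside in 4 (9.52%), those of Psmc1, Psmc2, Psmc6 and Psme4, against 3.52% and 1.66%. ETS family factors are common in T cells and bind many promoters of genes used in every cell. The SP and KLF family motif GGGCGG was found in 54.8%, against 70.8% of called and 47.8% of all promoters, and lay wholly inside a footprint in 40.5%, against 33.5% and 15.8%. CCAAT was found in 33.3%, against 39.6% and 37.8%. The 42 promoters include some that were not called, unlike the called set. Over the 39 proteasome promoters called in at least 3 libraries, CCGGAAG was found in 41% and CCAAT in 30.8%. GGGCGG was found in 59% of these 39 and lay wholly inside a footprint in 43.6%.

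The antioxidant response element TGACNNNGC is the motif through which NFE2L1 raises proteasome genes when the proteasome is inhibited. It was found in 6 promoters (14.3%), those of Psmb5, Psmb6, Psmc6, Psmd9, Psmd12 and Psme4, against 15.3% of called and 13.1% of all promoters, so these letters were about as frequent as elsewhere. It lay wholly inside a footprint in 2 promoters (4.76%), those of Psmb5 and Psmd9, against 1.85% and 0.864%; the match in Psmd9 shares bases with a GGGCGG box. The interferon regulatory factor motif, a pair of GAAA repeats with 2 bases between them, was found in 5 promoters (11.9%), those of Psmb3, Psmd4, Psmd9, Psme1 and Psmg4, against 2.78% and 3.42%, and touched a footprint in none, against 0.403% and 0.189%. In Psme1 it lay at positions 9 to 18. NRF1 was found in 2 promoters (4.76%), against 2.73% and 1.38%, namely in Psma2 and Psmg1, which have the highest mean relative heights of the genes with a RefSeq promoter. A relation between this motif and height was not tested, and the peak at Psma2 cannot be given to that gene alone. The cAMP response element TGACGTCA was found in none, against 3.88% and 2.31%. The YY1 motif AAGATGGCG was found in 2 promoters (4.76%), against 3.82% of called and 1.93% of all promoters, and that of ZNF143 in 2 (4.76%), against 2.86% and 1.43%. The E-box CACGTG was found in 3 (7.14%), against 11.1% and 8.03%, the RUNX motif TGTGGTT in 1 (2.38%), against 3.38% and 4.66%, and the TATA box TATAAA in 3 (7.14%), against 5.22% and 12.1%. Matches of different motifs can share bases, as those of CCGGAAG and GGGCGG can, and each was counted on its own. A match is a run of letters and not a shown binding site. The median number of CpG dinucleotides was 19, against 23 in called and 14 in all promoters. Over the 39 proteasome promoters called in at least 3 libraries it was 20. Of these 39, 15.4% held the antioxidant response element, 12.8% the interferon regulatory factor motif and 5.13% that of NRF1.

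**Figure D5:**
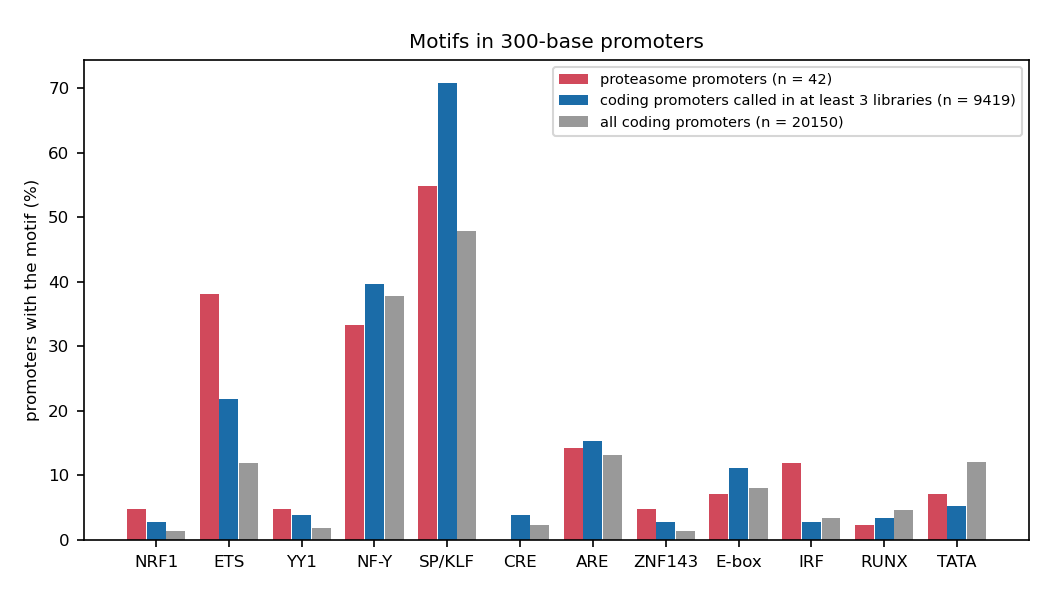
Share of 300-base promoters that hold each motif on either strand (y axis, %), for 42 proteasome promoters, 9419 protein-coding promoters called in at least 3 libraries and all 20150 protein-coding promoters. The ETS motif (38.1%) and the IRF motif (11.9%) are more frequent in the proteasome promoters than in either other set, and the SP/KLF motif (54.8%) lies between them. The 42 include promoters that were not called.

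Other genes of the pathway were open as well. Of 32 genes for the 3 immunoproteasome subunits, further subunits, associated factors, ubiquitin, shuttle factors and regulators, 32 were called in at least 3 libraries, against 55.2% of protein-coding genes. Their median relative height was 1.50, against 1.31 over the protein-coding genes called in at least 3 libraries. The constitutive catalytic genes were set beside their immunoproteasome counterparts. Psmb6 had 1.34, 1.26, 1.17 and 0.772, against 3.31, 3.76, 3.63 and 3.00 for Psmb9, and was the lower gene in every library. Psmb7 had 1.07, 1.20, 1.05 and 1.00, against 0.329, 0.280, 0.361 and 0.544 for Psmb10, and was the higher gene in every library. Psmb5 had 1.00, 1.20, 1.30 and 1.39, against 1.18, 1.25, 1.02 and 0 for Psmb8, and their order changed between libraries. Psmb9 starts beside Tap1, an antigen transporter gene, so its peak cannot be given to either gene alone. The further subunit genes Adrm1 (a ubiquitin receptor) and Sem1 (a lid subunit) had means of 3.06 ± 0.541 and 1.16 ± 0.116 (SD, n = 4 libraries). Of the regulators, Nfe2l1 had 2.57, 2.60, 2.56 and 1.91, and its relative Nfe2l2 1.30, 1.42, 1.80 and 1.84. Nfe2l3 had 0.796, 0.570, 0.471 and 0. Ddi2, the protease that activates NFE2L1, had a mean of 1.22, and Ngly1, which removes its sugars, 0.805.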

How the data were processed

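DNase-seq was deposited as 2 peak lists, a footprint list and a list of cut-rate intervals per library, on mm10. Each comes from that library's own filtered alignment, per the deposited text of the libraries, and neither the tools nor their thresholds were given there. Peak heights are a signal that the authors scaled to library depth. Footprints carry a deposited q-value, 0.01 throughout, and cut-rate intervals a deposited q-value under 0.05. Reads per site were not used, which leaves single sites without a counting interval.

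Peaks of the longer list were joined to promoters of GENCODE mouse release 21 (Python 3.11.15, numpy 2.4.6, pandas 2.3.3). Merged sites numbered 86936, and the implied depth was 24.3 to 109 M tags. Motif letters were searched in RefSeq promoters. Peak overlap, heights and the sign-flip test were tested on simulated data and recovered their known answers. Genes with values in every library included the highest and lowest of each class, the activators, the restricted genes and those missing a call. Others, such as Psmd1, Psmb6 and Psmb7, were given besides these. Of the fixed cell type markers, 1 is not reported here. The members, their classes and the gene lists were chosen with earlier results of these data known. Alternatives were other peak lists, windows, starts, scalings, thresholds and left-out libraries.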

Additional observations from a re-analysis of the deposited data

Results flagged for a closer look

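A library that stood far from the other 3 of its group was found for 3 of the 50 values tested, where chance gives about 1 in 20, and all 3 concern replicate 4, the shallowest library. Psma7, an alpha ring gene, had a relative height of 1.439 in replicate 4, against 0.936, 1.02 and 1.01 in replicates 1 to 3. Psmc2, an ATPase gene of the base, had 1.614 in replicate 4, against 1.22, 1.20 and 1.27. Psme1, a PA28 gene, had 0 in replicate 4, where no promoter peak was called, against 0.653, 0.682 and 0.680. The gap to the nearest library was 0.83, 0.843 and 0.958 of the whole range, above the 95% critical value of Dixon's test. The part of depth in these values was not tested.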

How the results depend on the processing

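Over 13 results and 148 alternative values, 7 moved and 0 changed direction. A median moved where it shifted by the SD between libraries or more, and a count where it changed by over 1.5 times. Of the 2 gene pairs only the direction of the mean difference was compared, since the sign-flip test of 4 libraries cannot go below 0.125. Psme2 minus Psme1 thus counted as unchanged with peaks centred within 200 bp of a start, where Psme2 was higher in 2 of 4 libraries. Not all alternatives were free to move a value. The shorter lists, the 500 bp window and the 200 bp centre limit can keep a gene's highest peak, and the structural median stayed at 1.73 in each. Scaling to the median of all peaks of a library gave medians of 5.73 for the structural subunits, 4.42 for the core, 5.70 for the base, 6.82 for the lid, 3.88 for the activators and 4.80 for the chaperones; this scale is in another unit by construction, and the lid stayed above the base and the base above the core. With replicates 1 and 2 only, the structural median was 1.63 and the cause was not tested.

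Leaving out each library in turn gave 43 to 44 genes called in at least 3 of those left, structural medians of 1.66 to 1.77, core 1.30 to 1.37, base 1.69 to 1.77 and lid 1.95 to 2.01. Genes with a footprint ranged from 39 to 44. Psme2 minus Psme1 was 0.635 (SD 0.369) and ranged from 0.461 to 0.727; it was 0.345 with the shorter peak lists, 0.232 with peaks centred within 200 bp of a start and 1.68 scaled to the median of all peaks. Psme3 minus Psme4 was -0.381 (SD 0.388), ranged from -0.508 to -0.226 (lowest without replicate 4, nearest to 0 without replicate 2), and was -0.696 with replicates 1 and 2 only and -1.73 scaled to the median of all peaks. With the 5′ end as the only start, 39 genes were called in all 4 libraries, and with the shorter lists 41. No paired analysis was possible because the 4 libraries form 1 group, so no groups share replicate numbers; the differences between genes were taken within each library. Depth limits what replicate 4 can show, since a missing peak there may be one not detected.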

Other observations

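Outside their promoters, proteasome genes had the same median number of accessible sites as all protein-coding genes, and a smaller share of them had none. Gene length was not taken into account, and the protein-coding genes include those with closed promoters. The median was 1 site called in at least 3 libraries, away from any annotated start and inside the gene or up to 25 kb from its ends, against 1 for all protein-coding genes, and 12 of the 47 genes (25.5%) had none, against 41.7%. Psmd9 had the most, with 7 sites, followed by Psmg4 with 5, while Psmb2 and Psmc4 were among those with none; these 4 were named after their values were seen.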
